A study of Arabidopsis thaliana with 18 samples.

Results

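XTH18, XTH19 and GH9C2 are 3 Arabidopsis genes for enzymes that remodel the cell wall, found by gene symbol in the probe annotation of the ATH1 array. Each is read by a single probeset, so 3 of the 22746 probesets on the array are described here. The genes were selected on their signals in these same 6 groups, with the differences between groups already known, so no comparison here was left unused by that choice. Their signals, changes and calls are given as a description, without p-values, and nothing is read from how many of them moved.

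Plant cells grow when turgor stretches a wall of cellulose microfibrils held in a matrix of xyloglucan and pectin. XTH enzymes (xyloglucan endotransglucosylase/hydrolases) cut xyloglucan chains and join the cut end to another chain, which lets the wall be rebuilt while it extends. GH9 enzymes are endo-1,4-beta-glucanases, and those of class C, such as GH9C2, carry a carbohydrate-binding module at the end of the protein. Auxin promotes cell expansion in some tissues and not in all, and genes for wall-loosening proteins are among those that auxin induces in many tissues. Growth of the cells was not analysed here.

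XTH18 (AT4G30280) and XTH19 (AT4G30290) are neighbours on chromosome 4 in assembly TAIR10.1. XTH18 is annotated at chr4:14825757-14827211 and XTH19 at chr4:14828712-14830224, with 1500 bases between the annotated ends. XTH24, a further gene of the family, lies 5161 bases to the other side of XTH18 and was not analysed here. GH9C2 (AT1G64390) is annotated on chromosome 1 at chr1:23911024-23915236. XTH18 and XTH19 belong to a group of closely related XTH genes expressed in roots, and whether their probes also bind transcripts of near relatives was not tested.

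Roots of 7-day-old Col-0 seedlings carrying Pwer::GFP, a green reporter driven by the WER promoter of the root epidermis, were digested to protoplasts for 3 h. The protoplasts took up 1 of 3 plasmids with PEG and were kept overnight. The groups were IAA19mII with IAA, IAA19mII mock, IAA7mII with IAA, IAA7mII mock, empty vector with IAA and empty vector mock, with 3 arrays each and 18 in all. IAA is indole-3-acetic acid, the main natural auxin, given at 5 µM for 3 h, and mock cells had solvent only. Cells that showed both the green and the red label were sorted for RNA. IAA7 and IAA19 belong to the Aux/IAA repressors, which auxin removes by way of their domain II, and mII is read as a mutation in that domain, although the labels do not spell it out. Both over-expressors were built in pBeaconRFP and the empty vector is pMON999_mRFP, so the effect of an over-expressed protein and that of the plasmid backbone cannot be told apart in any comparison with the empty vector.

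Arrays were scaled alike, with trimmed means of 246.5 to 247.6, and no 2 arrays were identical. The 75th percentile of an array was 219.6 to 238.4 in over-expressor cells, against 264 to 274.8 in empty vector cells, without overlap. Its part in the comparisons with the empty vector was not tested beyond the centring and quantile alternatives. Pairs of arrays within a group correlated at 0.918 to 0.973. Of 24 marker genes of root cell types only 2 had a probeset in the annotation used, so the epidermal identity of the cells could hardly be checked. TRY, a regulator of epidermal cell patterning, read 7.4 to 87 over the 18 arrays, with means of 72.1 and 44.8 in IAA19mII cells with IAA and mock, 24.8 and 20.1 in IAA7mII cells, and 21.1 and 13.1 in empty vector cells. The cortex gene CO2 read 0.6 to 21.6. Cells of 1 sort were pooled on each array, so fewer expressing cells and less RNA per cell cannot be told apart.

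XTH18 was higher in cells with either over-expressor than in empty vector cells, and it was highest in IAA19mII cells given IAA. Its signal was 2603, 4909 and 3639 on the 3 arrays of IAA19mII cells with IAA, against 1865, 2453.5 and 1625 in IAA19mII mock cells. IAA7mII cells with IAA read 975.5, 1983.5 and 1983, against 1949, 2004 and 2569.7 in IAA7mII mock cells. Empty vector cells with IAA read 348.5, 749.9 and 957, against 609, 1251 and 488.5 in empty vector mock cells. Every IAA19mII array with IAA was above every other array. The other 5 groups, ordered by their means, formed a run in which each overlapped the next. Empty vector cells were spread widely, with an SD of 309 around a mean of 685 with IAA and of 410.1 around 783 in mock.

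**Figure D1:**
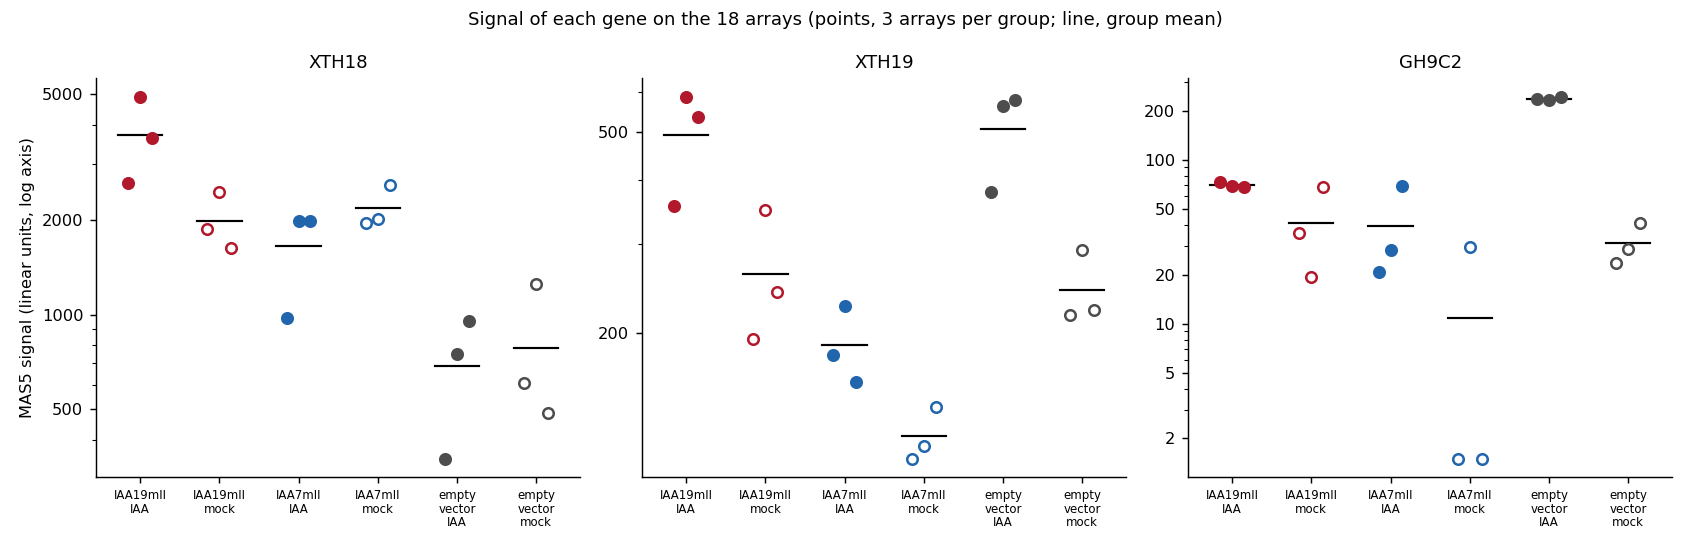
MAS5 signal (linear units on a log axis) of XTH18, XTH19 and GH9C2 on each array, by plasmid and treatment; points are the 3 arrays of a group and lines are group means. XTH18 is high in both over-expressors, XTH19 is lowest in IAA7mII mock cells, and GH9C2 stands out in empty vector cells with IAA at 233 to 243.

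On the scale log2(signal + 16), XTH18 differed from empty vector mock cells by 1.42 ± 0.33 in IAA19mII mock cells, a 2.67-fold higher signal (± is the standard error, from a limma fit over all 18 arrays). With IAA the IAA19mII cells were 5.58-fold higher than empty vector cells (2.48 ± 0.33), at means of 3717 and 685. IAA7mII cells were 2.95-fold higher than empty vector cells in mock (1.56 ± 0.33) and 2.44-fold higher with IAA (1.29 ± 0.33). In all of these vector comparisons the arrays of the 2 groups did not overlap. The last of them rested most on a single array, since without empty vector IAA replicate 1 it was 0.87 and no longer passed an adjusted p of 0.05 in the fit. That comparison also lost its call with array weights.

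The response of XTH18 to IAA did not have the same sign with every plasmid. In IAA19mII cells it was 1.84-fold higher with IAA (0.88 ± 0.33), with all 3 IAA arrays above all 3 mock arrays. In IAA7mII cells it was 1.37-fold lower (-0.46 ± 0.33) and in empty vector cells 1.14-fold lower (-0.19 ± 0.33), both with overlapping arrays. None of the 3 responses passed the fit's threshold, and the empty vector value changed sign when single arrays were left out (-0.48 to 0.23). Set against the response in IAA7mII cells, that in IAA19mII cells was greater by 1.33 (95% interval 0.37 to 2.30). Set against empty vector cells it was greater by 1.06 (0.10 to 2.03), and for IAA7mII minus empty vector the difference was -0.27 (-1.24 to 0.69). None of these differences passed after adjustment over all probesets, and the intervals make no allowance for the choice of the gene.

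XTH19 was higher with IAA than in mock with each plasmid, and it was lower in IAA7mII cells than in the other cells of the same treatment. It read 356, 586 and 535 in IAA19mII cells with IAA, against 194, 349 and 240.4 in IAA19mII mock cells. IAA7mII cells with IAA read 181, 226 and 159.9, against 112, 119 and 142 in IAA7mII mock cells. Empty vector cells with IAA read 379, 562.5 and 578, against 216, 291 and 221 in empty vector mock cells. Within each plasmid all IAA arrays were above all mock arrays. In the order of group means, IAA7mII mock cells were lowest at 125 and apart from IAA7mII cells with IAA at 189. That group overlapped empty vector mock cells at 243, which overlapped IAA19mII mock cells at 261. IAA19mII cells with IAA (492) and empty vector cells with IAA (507) overlapped each other at the top.

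The response of XTH19 to IAA was 1.84-fold in IAA19mII cells (0.88 ± 0.28), 1.45-fold in IAA7mII cells (0.54 ± 0.28) and 2.00-fold in empty vector cells (1.00 ± 0.28). None of them passed in the fit over all probesets. The empty vector response passed in 2 of 16 alternatives, with array weights and with only the groups of the comparison. The differences between these responses were -0.12 (95% interval -0.93 to 0.69) for IAA19mII minus empty vector, -0.47 (-1.28 to 0.35) for IAA7mII minus empty vector, and 0.35 (-0.47 to 1.16) for IAA19mII minus IAA7mII. These intervals include 0 and are wide, so equal responses are not shown.

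Between plasmids, XTH19 in IAA7mII cells with IAA was 2.53-fold lower than in empty vector cells with IAA (-1.34 ± 0.28), with no overlap of arrays. In mock it was 1.83-fold lower (-0.87 ± 0.28), again with no overlap. That mock value passed the fit's threshold and lost the call without any 1 of its 6 arrays (-0.96 to -0.74), after median centring (-0.80) and after quantile normalization (-0.64). IAA19mII cells differed little from empty vector cells, by 0.07 ± 0.28 in mock and -0.05 ± 0.28 with IAA. The sign of the value with IAA turned after median centring (0.08). Set against IAA7mII cells, IAA19mII cells were 2.45-fold higher with IAA (1.29 ± 0.28) and 1.93-fold higher in mock (0.95 ± 0.28), both without overlap. The mock value did not pass, but it passed in 5 of 16 alternatives: with a pseudocount of 1 (1.03), a filter at the 60th percentile (0.95), array weights (0.94) or a replicate block (0.95), and without IAA19mII mock replicate 1 (1.13).

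The neighbouring genes XTH18 and XTH19 did not keep a constant ratio between plasmids. The ratio of XTH18 to XTH19 was taken within each array on the log2(signal + 16) scale and set to 0 at the empty vector mock mean, because levels of different probesets cannot be compared directly. It was 1.29, 1.51 and 1.21 in IAA19mII cells with IAA, and 1.64, 1.24 and 1.16 in IAA19mII mock cells. It was 0.81, 1.52 and 1.99 in IAA7mII cells with IAA, and 2.42, 2.38 and 2.51 in IAA7mII mock cells. It was -1.64, -1.12 and -0.81 in empty vector cells with IAA, and -0.09, 0.53 and -0.43 in empty vector mock cells. Every over-expressor array was above every empty vector array. With IAA the ratio was lower than in mock in IAA7mII cells (mean 1.44, SD 0.59, against 2.43, SD 0.07) and in empty vector cells (-1.19, SD 0.42, against 0, SD 0.49), with no overlap of arrays. In IAA19mII cells both treatments had a mean of 1.34 (SD 0.16 with IAA, 0.26 in mock). The ratio shows unequal change, and not which of the genes changed.

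**Figure D2:**
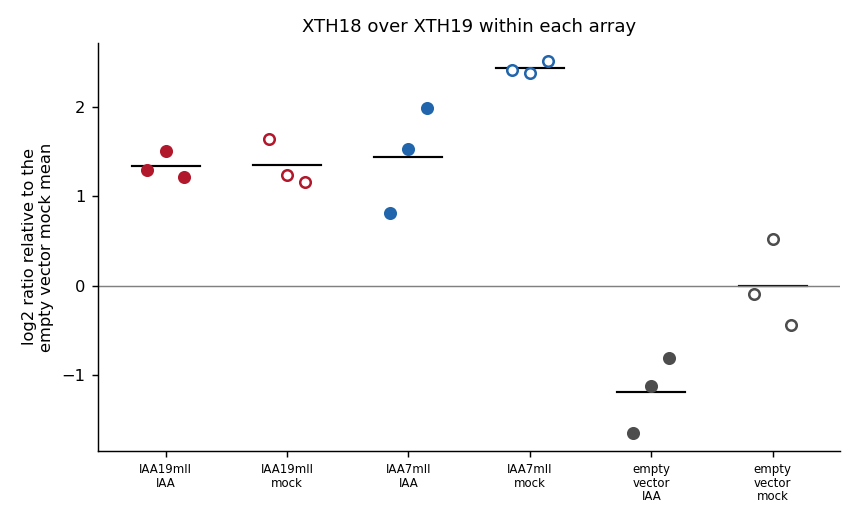
Log2 ratio of XTH18 to XTH19 within each array, relative to the empty vector mock mean, by plasmid and treatment; points are arrays and lines are group means (n = 3). IAA7mII mock arrays lie highest, at 2.38 to 2.51, and empty vector arrays with IAA lowest, at -1.64 to -0.81.

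GH9C2 was high in empty vector cells given IAA and low in every other group. Its signal was 73.4, 69.7 and 68.2 in IAA19mII cells with IAA, against 35.9, 19.3 and 67.9 in IAA19mII mock cells. It was 20.8, 28.2 and 69 in IAA7mII cells with IAA, against 1.5, 29.4 and 1.5 in IAA7mII mock cells. Empty vector cells with IAA read 234, 233 and 243, against 23.6, 28.5 and 41.4 in empty vector mock cells. The 3 empty vector arrays with IAA agreed closely (SD 5.84 around a mean of 237) and the highest array of any other group read 73.4. Among the other groups, IAA19mII cells with IAA had the highest mean (70.4, SD 2.68), and 1 IAA7mII array with IAA, at 69, fell within their range. The remaining 4 groups overlapped in a row from 10.8 in IAA7mII mock cells to 41.0 in IAA19mII mock cells.

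Low signals limit what can be said of GH9C2 outside empty vector cells with IAA. The 40th percentile of an array, the floor used to select probesets, was 20.6 to 32.3. GH9C2 exceeded it on 14 of 18 arrays, whereas XTH18 and XTH19 did so on all 18. On the 2 IAA7mII mock arrays at 1.5 the fold change depends on the pseudocount of 16 that was added before taking logs.

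In empty vector cells GH9C2 was 5.42-fold higher with IAA (2.44 ± 0.42), at means of 237 and 31.2. It was 1.61-fold higher in IAA19mII cells (0.69 ± 0.42), where the IAA arrays lay just above the highest mock array, and 2.15-fold higher in IAA7mII cells (standard error 0.42 on the log2 scale), where the arrays overlapped. With IAA, GH9C2 was 2.92-fold lower in IAA19mII cells than in empty vector cells (-1.55 ± 0.42) and 4.89-fold lower in IAA7mII cells (-2.29 ± 0.42), in both cases with no overlap. With a pseudocount of 1 the empty vector response and the IAA19mII difference kept their direction and lost their calls. In mock the differences were 0.20 ± 0.42 for IAA19mII and -0.95 ± 0.42 for IAA7mII, with overlapping arrays. The IAA7mII mock value passed in 3 of 16 alternatives: without IAA7mII mock replicate 2 (-1.41), with a pseudocount of 1 (-2.45) and with array weights. It was -0.36 with a pseudocount of 64.

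The response of GH9C2 to IAA differed from that in empty vector cells by -1.75 in IAA19mII cells (95% interval -2.97 to -0.53) and by -1.33 in IAA7mII cells (-2.56 to -0.11). Neither difference passed after adjustment over all probesets, and the intervals make no allowance for the choice of the gene. The IAA7mII value was -0.30 with a pseudocount of 1. The IAA19mII value lay between -2.05 and -1.28 in all alternatives run. The difference between IAA19mII and IAA7mII cells was -0.41 (-1.64 to 0.81).

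**Figure D3:**
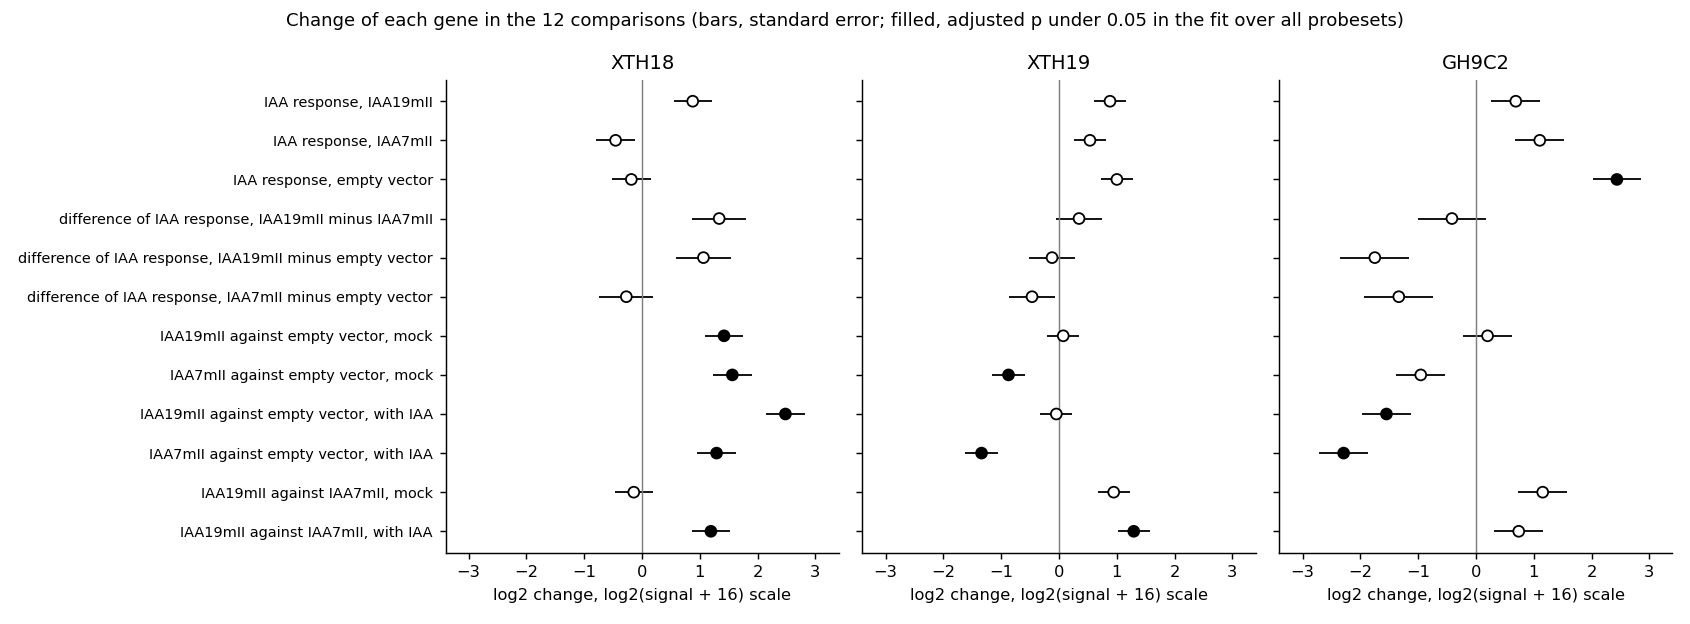
Log2 change on the log2(signal + 16) scale of each gene in the 12 comparisons; bars are standard errors and filled points had an adjusted p under 0.05 in the limma fit over 16892 probesets. XTH18 is positive in all 4 comparisons with the empty vector, XTH19 against the empty vector is filled, and negative, only for IAA7mII (the mock point lost its call after median centring), and GH9C2 is negative for both plasmids with IAA.

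Counts of calls are given beside how often any probeset was called, in limma's test with Benjamini-Hochberg adjustment over 16892 probesets. The 3 genes were chosen with these values known. A count above the background, here or between plasmids, is therefore no result about them. In the response of empty vector cells 1 of the 3 genes, GH9C2, was called where 0.734% of probesets were, and 2 of 3 had no overlap between groups where 15.3% did. In the response of IAA7mII cells none of the 3 was called where 0.0888% were, and XTH19 alone had no overlap (10.4% of probesets). By limma 1 of the 3 had an unadjusted p under 0.05, as did 1306 of 16892 probesets. In the response of IAA19mII cells none was called where 0.0888% were. Here 2 of the 3 had an unadjusted limma p under 0.05, as did 1490 of 16892 probesets. All 3 were free of overlap in that response (11.8% of probesets), and all lay higher with IAA (6.13% of probesets). None of the 3 was called in a difference between responses. The backgrounds were 0.0888% for IAA19mII minus empty vector, 0.0651% for IAA7mII minus empty vector and 0.0178% for IAA19mII minus IAA7mII. In the same order 2, 1 and 1 genes had an unadjusted limma p under 0.05, as did 825, 844 and 1071 of 16892 probesets.

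Calls between plasmids were common in general. In IAA19mII against empty vector cells, 1 of 3 was called in mock (14.5% of probesets; no overlap in 1 of 3 and 36.7% of probesets). With IAA 2 of 3 were called (23.5%; no overlap in 2 of 3 and 37.8%). In IAA7mII against empty vector cells, 2 of 3 were called in mock (11.4%; no overlap in 2 of 3 and 33.5%) and 3 of 3 with IAA (19.5%; no overlap in 3 of 3 and 33.9%). In IAA19mII against IAA7mII cells, none was called in mock by limma (4.37% of probesets), with no overlap in 1 of 3 (20.2% of probesets). At an unadjusted limma p under 0.05 were 2 of 3 there, and 2459 of 16892 probesets. With IAA 2 of 3 were called (6.64%; no overlap in 2 of 3 and 17.9%). XTH18 in the last comparison (1.19 ± 0.33) lost its call without IAA7mII IAA replicate 1 (0.85), IAA19mII IAA replicate 2 (0.97) or IAA19mII IAA replicate 3 (1.18). It also lost it after median centring (1.11), without the intensity trend (1.19) and with array weights (1.23).

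Over all tested probesets the median change was -0.14 and -0.17 for IAA19mII against empty vector cells in mock and with IAA, and -0.09 and -0.17 for IAA7mII. Centring each array on its median put XTH18 at 1.53 and 2.61 for IAA19mII and at 1.64 for IAA7mII in mock. It put GH9C2 with IAA at -1.42 for IAA19mII and -2.07 for IAA7mII, so these directions held.

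Few other genes of these families could be tested. Of 33 XTH genes in the gene annotation, 10 had a probeset of their own in the annotation used and 5 passed the filter. Apart from XTH18 and XTH19 these were EXGT-A3, XTH26 and XTH29, and none of the 3 was called in any response to IAA (0 at an unadjusted p under 0.05 by limma in each). Their median response was 0.15 in IAA19mII cells, -0.28 in IAA7mII cells and 0.36 in empty vector cells, against medians of 0.00, -0.02 and 0.03 over all probesets. XTH29 was higher with IAA in IAA19mII than in empty vector cells, by 1.63 ± 0.41 on the log2 scale (limma adjusted p = 0.00506), at mean signals of 52.3 and 6.33. It was 2.40-fold higher in IAA7mII cells (1.26 ± 0.41, limma adjusted p = 0.0318), a call lost in 7 of 15 alternatives. Both of its values rest on low signals. In empty vector cells XTH29 read at most 15.5, under the 40th percentile of every array (20.6 to 32.3). It passed the filter only through over-expressor arrays, so the filter favoured this direction and the p-values are no independent support. The remaining 5 XTH probesets, among them that of XTH20, a close relative of XTH18 and XTH19, stayed under 46 on every array and were not tested.

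Of 25 GH9 genes 15 had a probeset of their own and 5 passed the filter. Besides GH9C2 these were GH9C1, GH9C3, GH9B7 and GH9B17, and none of the 4 was called by limma in a response to IAA. At an unadjusted limma p under 0.05 were 0, 1 and 1 in IAA19mII, IAA7mII and empty vector cells. Over all 16892 probesets, 1490, 1306 and 871 were so in the same order. The closest to a call was GH9C1, also of class C, known as an endoglucanase gene of growing root hairs. It read 39.8, 58.4 and 39.5 in IAA19mII cells with IAA, against 33.3, 5.6 and 121.6 in IAA19mII mock cells. It read 168, 26.1 and 181.5 in IAA7mII cells with IAA, against 9.9, 6.5 and 8.6 in IAA7mII mock cells. It read 658.5, 358 and 138 in empty vector cells with IAA, against 37.4, 67.1 and 110.2 in empty vector mock cells. All IAA arrays were above all mock arrays with IAA7mII and with the empty vector, and the spread among the IAA arrays was wide.

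GH9C1 was 4.74-fold higher with IAA in IAA7mII cells (2.25 ± 0.59, limma adjusted p = 0.248) and 4.11-fold higher in empty vector cells (2.04 ± 0.59, limma adjusted p = 0.16), and it changed by 0.22 ± 0.59 in IAA19mII cells. It was lower in IAA19mII cells with IAA than in empty vector cells with IAA, 5.53-fold (-2.47 ± 0.59, limma adjusted p = 0.00328), and kept that call in all 16 alternatives. The same comparison for IAA7mII cells gave -1.56 ± 0.59 (limma adjusted p = 0.065). GH9C3, GH9B7 and GH9B17 were called in none of the 12 comparisons.

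Expansins loosen walls without cutting their polymers, and 14 of 19 expansin genes with a probeset of their own passed the filter. None was called in a response to IAA by limma. At an unadjusted limma p under 0.05 were 3, 1 and 1 in IAA19mII, IAA7mII and empty vector cells. Over all 16892 probesets, 1490, 1306 and 871 were so in the same order. Their median response was 0.27 in IAA19mII cells, -0.10 in IAA7mII cells and 0.06 in empty vector cells. With IAA, EXPA4 was 3.27-fold higher in IAA19mII than in IAA7mII cells (1.71 ± 0.47, limma adjusted p = 0.0264), at 216, 161 and 200.1 against 46.4, 6 and 169. XTH18 and XTH19 were higher in the same comparison. EXPA4 lost the call in 7 of 16 alternatives, and EXPA8 (1.25 ± 0.38, limma adjusted p = 0.045) in 9 of 15. These were 2 of the 14 expansins, where 6.64% of all probesets were called. In IAA7mII against empty vector cells with IAA, EXPA4 was lower (-1.62 ± 0.47, limma adjusted p = 0.0157), a call lost in 4 of 16 alternatives. Those were the fit to its own groups (-1.62) and the fits without IAA7mII IAA replicate 2 (-0.85), empty vector IAA replicate 1 (-1.54) or empty vector IAA replicate 3 (-1.54). EXPA8 (-1.07 ± 0.38, limma adjusted p = 0.0475) and EXPA16 (-1.06 ± 0.38, limma adjusted p = 0.0499) were lower there too and lost the call in 11 of 15 alternatives each. With EXPA4 these were 3 of the 14 expansins, where 19.5% of all probesets were called. EXPA8 averaged 4.9 in IAA7mII, 27.4 in empty vector and 33.5 in IAA19mII cells with IAA. EXPA16 averaged 8.1 in IAA7mII and 33.3 in empty vector cells with IAA. The values of both genes thus rest on signals near or under the floor of 20.6 to 32.3. Among the cellulose synthesis genes only COB, for a protein that orients cellulose deposition, had a tested probeset. It was lower in IAA19mII mock cells than in empty vector mock cells (-2.17 ± 0.39, limma adjusted p = 0.000312) and 2.89-fold lower in IAA7mII mock cells (-1.53 ± 0.39, limma adjusted p = 0.00964).

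**Figure D4:**
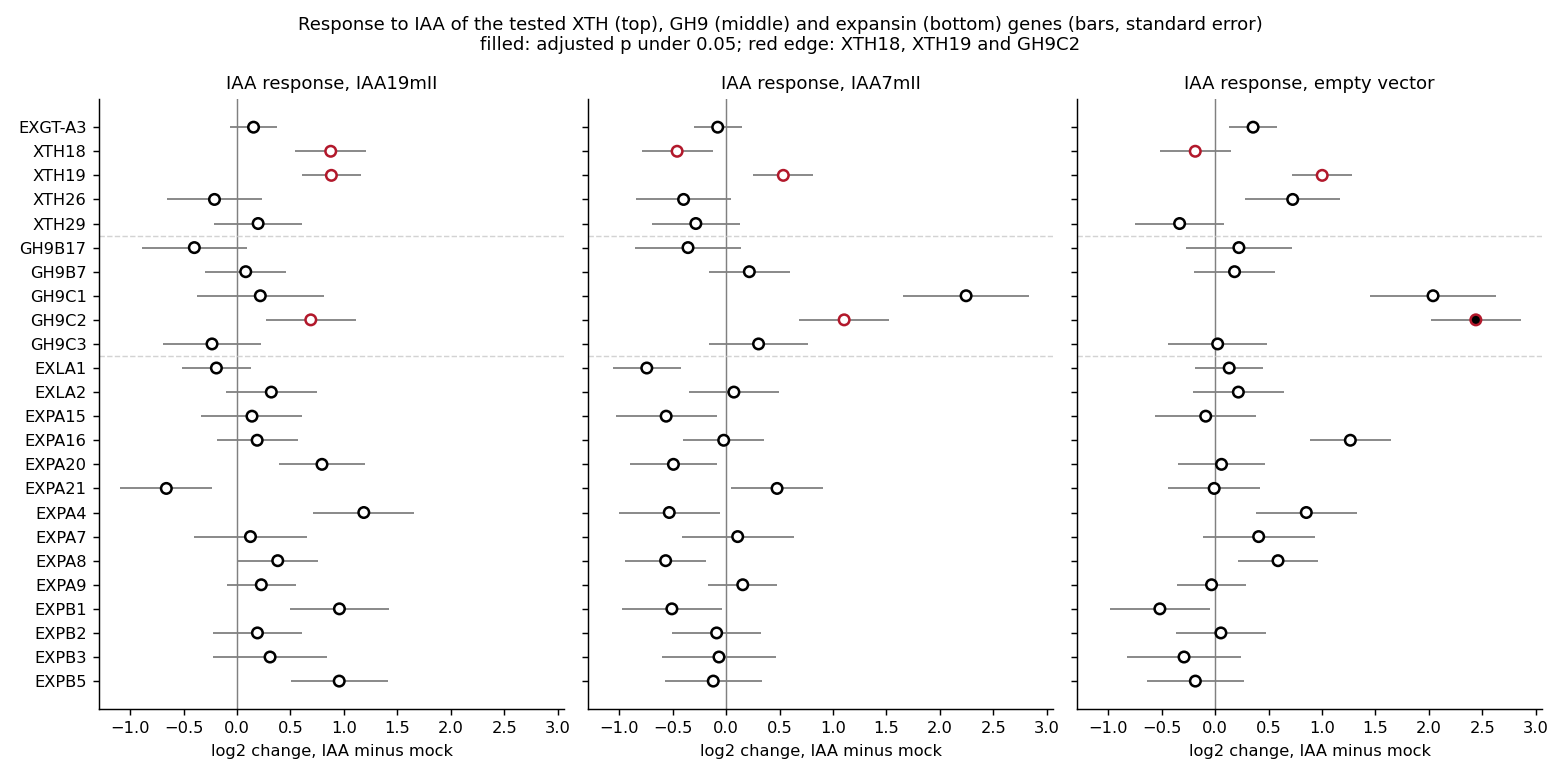
Response to IAA (log2 change, IAA minus mock, with standard errors) of the tested XTH, GH9 and expansin genes in IAA19mII, IAA7mII and empty vector cells. Red edges mark XTH18, XTH19 and GH9C2; the filled point, GH9C2 in empty vector cells at 2.44, had an adjusted p under 0.05.

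The chromosomal neighbours of the genes, up to 3 places to either side, were read where the annotation gave them a probeset of their own. Beside XTH18 and XTH19 this was the case for AT4G30310 and AT4G30320. AT4G30310 was called in none of the 3 responses to IAA (1.35-fold, 1.49-fold and 1.26-fold lower with IAA in IAA19mII, IAA7mII and empty vector cells), and AT4G30320 stayed under 36 on all arrays. AT4G30310 was 1.73-fold lower in IAA7mII cells with IAA than in empty vector cells with IAA (-0.79 ± 0.24, limma adjusted p = 0.0212), the direction of XTH19 and not of XTH18. It lost this call after median centring (-0.57), and also without empty vector IAA replicate 2 or 3 (-0.87 to -0.57 over all alternatives).

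Near GH9C2, AT1G64405 lies 2 places away on chromosome 1, at chr1:23923517-23924395. It read 54.6, 6.7 and 29.6 in IAA19mII cells with IAA, against 16.9, 32.9 and 41.4 in mock. It read 7.5, 0.6 and 2.1 in IAA7mII cells with IAA, against 10.8, 3 and 11.1 in mock. It read 194.5, 329 and 243 in empty vector cells with IAA, against 24.8, 28 and 26 in mock. Like GH9C2, it was high in empty vector cells with IAA and low in every other group. LACS3, the gene between them, was not analysed here.

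AT1G64405 was 6.30-fold higher with IAA in empty vector cells (2.66 ± 0.40, limma adjusted p = 0.00032), against -0.11 ± 0.40 in IAA19mII and -0.32 ± 0.40 in IAA7mII cells. Its empty vector call was lost with a pseudocount of 1, as was that of GH9C2. The difference in response was -2.77 ± 0.57 for IAA19mII (limma adjusted p = 0.0506) and -2.98 ± 0.57 for IAA7mII (limma adjusted p = 0.034, lost in 14 of 22 alternatives). AT1G64380, 3 places to the other side, also had its highest mean in empty vector cells with IAA (402). With IAA it was lower than in empty vector cells in IAA19mII cells (-1.12 ± 0.39, limma adjusted p = 0.0358, lost in 8 of 16 alternatives) and in IAA7mII cells (-3.12 ± 0.39, limma adjusted p = 1.2e-06), the directions of GH9C2. It was 5.17-fold lower in IAA7mII mock cells than in empty vector mock cells (-2.37 ± 0.39, limma adjusted p = 0.000109), and no response to IAA was called (0.75 ± 0.39 in empty vector cells, limma adjusted p = 1). AT1G64410, a pseudogene 3 places from GH9C2 on the side of AT1G64405, was called in none of the 12 comparisons, and its response in empty vector cells was -0.08 ± 0.42.

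**Figure D5:**
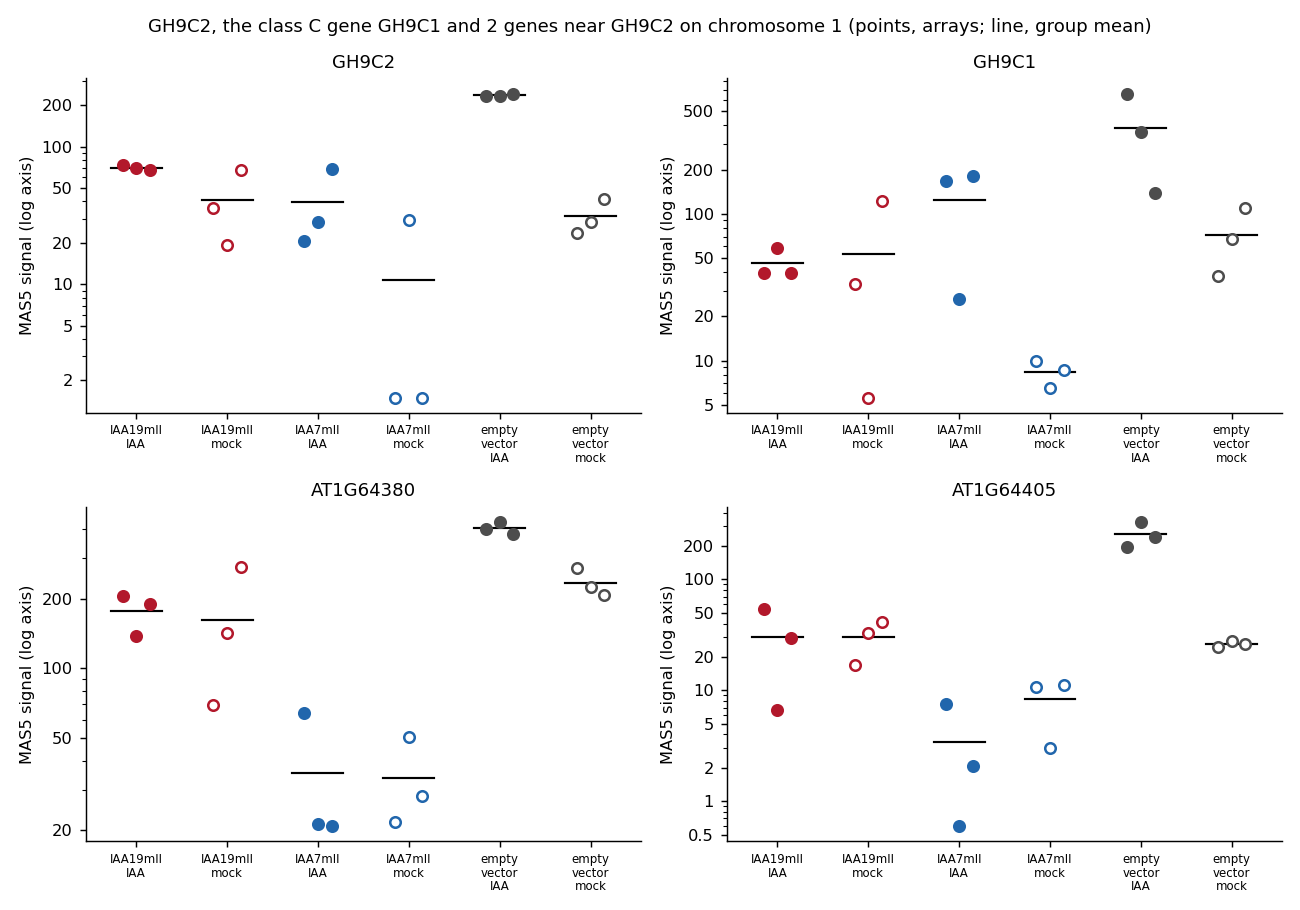
MAS5 signal (log axis) of GH9C2, of GH9C1 and of AT1G64380 and AT1G64405 near GH9C2 on chromosome 1; points are arrays and lines are group means (n = 3). GH9C2 and AT1G64405 are high in empty vector cells with IAA (233 to 243 and 194.5 to 329), and AT1G64380 is lowest in IAA7mII cells.

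The genes whose signals followed each of the 3 most closely were found by Pearson correlation of log2(signal + 16) over the 18 arrays, among 9391 other genes. The arrays share plasmids and treatments within 6 groups and are not 18 independent points, so the values are given without a p. GH9C2 was most like LBD16 (r = 0.925), a transcription factor gene of lateral root initiation. AT1G60010 (0.901), the auxin-conjugating enzyme gene WES1 (0.894), AT4G13180 (0.889) and the Aux/IAA gene IAA30 (0.874) came next. XTH19 was most like the ubiquitin ligase gene PUB23 (0.876), AT1G28680 (0.874), WES1 (0.871), AT3G49890 (0.848) and the glycosyltransferase gene UGT76D1 (0.828). XTH18 was most like AT3G09010 (0.924), AT4G29780 (0.903), AT2G38870 (0.902), AT5G12890 (0.898) and AT4G28085 (0.895).

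WES1 stood in the lists of both GH9C2 and XTH19, and no gene was shared between the lists of XTH18 and XTH19. WES1 averaged 5234 and 2734 in IAA19mII cells with IAA and mock, 2971 and 1196 in IAA7mII cells, and 9038 and 3120 in empty vector cells. AT5G12890, from the list of XTH18, averaged 599 and 326 in IAA19mII cells with IAA and mock, 337 and 366 in IAA7mII cells, and 167.5 and 166 in empty vector cells. Like XTH18, it was highest in IAA19mII cells with IAA and lowest in empty vector cells of either treatment. AT5G12890 was picked for its correlation with XTH18 on these arrays, so this likeness follows from the choice.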

How the data were processed

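Per the labels' protocols, sorted cells went straight into lysis buffer and the RNA was amplified (NuGEN WT-Ovation Pico) for ATH1 arrays. The authors deposited 1 MAS5 signal intensity for each probeset, already scaled, per the submitters' processing notes. The MAS5 version was not given in the sources used. Their scaling was kept. Date and lot fields of the array description files are blank, so no batch could be tested.

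A limma 3.58.1 model (R 4.3.3) with a mean for every group and an intensity trend was fitted to log2(signal + 16). It used the 16892 probesets that exceeded the 40th percentile on 3 or more arrays. Fold changes on this scale understate changes of low signals. Calls are at an adjusted p under 0.05 (Benjamini-Hochberg within a comparison). Gene names and coordinates come from a platform probe annotation and a TAIR10.1 gene annotation, and a gene with several probesets was read from its brightest one. The members, lists and comparisons were chosen with earlier results of these data known. Beside the 3 genes, the text names up to 4 called genes of a list in a comparison (or 2 uncalled), neighbours within 3 places, and the 5 best correlated genes. The early auxin list was drawn from genes known from these data, so its counts test nothing. All 8 of its genes were called higher with IAA in empty vector cells (median 3.47), where 0.734% of all probesets were called. In IAA19mII and IAA7mII cells 4 and 3 were (medians 1.02 and 1.17), where 0.0888% of all probesets were called in each. These smaller counts are set against a baseline chosen with its values known. The pectin methylesterase and xyloglucan synthesis lists had 1 tested gene each, called in no comparison. Promoter and protein sequences were not analysed here. Nothing in the labels ties replicates to separate cultures, so errors and p-values cover the spread between these arrays, which may be technical, and their number limits the precision. The procedure was tested on simulated data.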

Additional observations from a re-analysis of the deposited data

How the results depend on the processing

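The 36 changes of XTH18, XTH19 and GH9C2 were recomputed under the alternatives, giving 630 values. None of the 11 called changes turned its direction, and 6 of the 11 kept their call throughout. Of the 25 uncalled changes, 21 stayed uncalled throughout. Of the 630 values, 620 moved by less than the spread between arrays of a group. The other 10 were all of GH9C2 and came from the pseudocount, which weighs on its signals near the floor. With a pseudocount of 1 its response in IAA7mII cells was 2.62, its difference of response -0.30 (IAA7mII minus empty vector) and -1.69 (IAA19mII minus IAA7mII), and its mock differences -2.45 (IAA7mII against empty vector) and 2.70 (IAA19mII against IAA7mII). With 64 the responses were 0.46 in IAA7mII and 1.66 in empty vector cells, the mock differences -0.36 and 0.48 in the same order, and IAA7mII against empty vector with IAA -1.57. With a pseudocount of 1 the GH9C2 calls for the empty vector response and for IAA19mII against empty vector with IAA were lost.

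Background counts moved as follows; no cause was tested. In the empty vector response, 124 probesets became 66 without the intensity trend, 328 with array weights, and 78 to 111 with an array left out. In the IAA7mII response, 15 became 8 with only its own groups and 11 to 35 with an array left out. In the IAA19mII response, 15 became 8 without the trend, 24 with the replicate block, and 7 to 20 with an array left out. The difference for IAA7mII (11) became 5 and 22 with pseudocounts of 1 and 64, 18 after quantile normalization, 7 without the trend, 19 with array weights and 5 to 10 with an array left out. That for IAA19mII (15) became 5, 27, 3 without the trend, 25 with weights, and 4 to 15. That between the over-expressors (3) became 7 without the trend and 3 to 5 with an array left out. In mock, IAA7mII against empty vector (1928) became 3031 with weights and, with an array left out, 1214 to 1635, and IAA19mII (2445) became 3965 and 1552 to 2100. IAA19mII against IAA7mII with IAA (1122) became 539 with weights and 480 with only its groups.

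Same-numbered arrays of different groups correlated at -0.059 to 0.162 in their deviations from group means, with 1 of 45 pairs over 0.1, so the numbers were not taken to pair samples. To the contrary, 15 of 18 arrays deviated most like arrays of their own number. The main fit holds no term for replicate number, and a shared effect of it was not tested beyond the replicate block. With the replicate block XTH19 was called in IAA19mII against IAA7mII mock cells (0.95). Batch blocks and other probesets of a gene were not run, as no batch is given and XTH18, XTH19 and GH9C2 have a single probeset each. Of 24 tested wall list genes other than the 3, 3 were called in IAA19mII against empty vector cells with IAA (2 to 3 over the alternatives; 23.5% of all probesets) and 1 in mock (1 to 3; 14.5%). In IAA7mII against empty vector cells 5 were called with IAA (1 to 7; 19.5%) and 1 in mock (0 to 4; 11.4%). In IAA19mII against IAA7mII cells with IAA 2 were called (0 to 2; 6.64%). None was called in the IAA7mII and empty vector responses (up to 1 and 2).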
